A study of Mus musculus with 69 samples.

Results

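The synaptic vesicle and exocytosis genes described here are 52 mouse genes for the proteins that dock, prime, fuse and recycle secretory vesicles, chosen by symbol from a fixed list, and all 52 were found among the 55964 gene IDs of the tables. They were grouped by role into 9 genes of the SNARE core and its assembly, 12 synaptotagmins and Doc2b, 7 vesicle membrane proteins, 3 synapsins, 9 Rab3 GTPases and their effectors, 8 active zone and priming factors, and 4 genes of endocytosis and related steps. RNA-seq was made from pituitary, hypothalamus and ovary of female C57BL/6J mice staged for proestrus, the cycle stage before ovulation. The genotypes were WT, 200H with 1 and 200M with 2 copies of a Zeb1 knock-in allele whose 3′ UTR has point mutations in every predicted site for the miR-200a and miR-200b families, small RNAs that lower Zeb1. The allele is inherited through the germline and so is in every cell of its carriers, and the mice derive from 2 embryonic stem cell clones. Young mice were virgin females of 8–12 weeks and older mice were females of 28–36 weeks taken after a trial of breeding. The paper reports that most females carrying only the knock-in allele had no litter in that trial, unlike the other genotypes. Genotype and history of pregnancy are thus not separated in the older cohort, and the labels do not tell which mice had litters. The part of that history in the older values was not tested. Each of the 18 groups held 3 or 4 libraries, 69 in all, and the libraries of a group came from different mice. Libraries of different tissues can come from the same mouse, and the labels do not tell which do. Young libraries were made from rRNA-depleted stranded RNA and older libraries from poly(A) RNA without strand, so levels were not compared between cohorts.

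A vesicle fuses with the cell membrane when a SNARE protein on the vesicle zips up with SNAREs of the membrane, and calcium-binding synaptotagmins trigger that step. Rab3 proteins, RIMs, Munc13s and CAPS proteins bring vesicles to the membrane and make them ready to fuse, while dynamins and amphiphysin retrieve the membrane afterwards. Endocrine cells of the pituitary release their hormones from dense-core granules with the same machinery, and neurons of the hypothalamus use it at synapses.

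The miR-200 family that the allele escapes has 5 mature members of 2 seed groups, shown here with the seed (bases 2 to 8 from the 5′ end) in capitals because the mutated sites pair with these bases. Sequences are from RefSeq, GRCm38.p6.
mmu-miR-200a-3p: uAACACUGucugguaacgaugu
mmu-miR-141-3p: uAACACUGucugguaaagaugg
mmu-miR-200b-3p: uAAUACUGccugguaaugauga
mmu-miR-200c-3p: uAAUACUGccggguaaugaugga
mmu-miR-429-3p: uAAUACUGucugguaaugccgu
The first pair shares the seed AACACUG and the other three share AAUACUG.

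Total counts per library ran from 3321845 in young hypothalamus to 14655095 in older ovary. Each tissue showed its own markers. Levels are in CPM (the usual counts-per-million unit of library size, with libraries scaled by TMM within a tissue and cohort). The sum of 12 pituitary markers in young pituitary was 164318 to 187571 CPM in WT, 70236.5 to 98474 in 200H and 68397 to 87995 in 200M. For older pituitary it was 290386 to 322527 CPM in WT, 151502 to 226979 in 200H and 162427 to 211367 in 200M. Zeb1 lay at 95.6 to 98.5 CPM in young WT pituitary, 126 to 135 CPM in 200H and 132 to 141.4 CPM in 200M. In older pituitary the ranges were 55.3 to 62.7, 70.1 to 76.1 and 80.6 to 93.0 CPM. In older pituitary 1 library, 200H replicate 1, had no count of Nkx2-1 and 0.23 CPM of oxytocin, both marks of the posterior lobe, and 200M replicates 2 and 3 had the 2 highest sums of 4 melanotrope markers, 24456 and 25249 CPM against 3909 to 12459 CPM in the other 9. Values by library are given in the order of replicates 1, 2, u for young WT pituitary, 1 to 3 for older 200M pituitary, and 1 to 4 for the rest. The column of u carries the number 3, which no label of that group has, so only its group is known.

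In young pituitary, 23 of the 51 members tested were higher and 8 were lower in 200M than in WT (edgeR quasi-likelihood test, Benjamini-Hochberg over all genes, adjusted p under 0.05), whereas 11.5% of all 18199 genes tested were called higher and 10.0% lower, 21.5% in either direction. In older pituitary 26 of 51 were higher and 3 lower, against 11.7% and 9.77% of all 14711 genes, 21.4% in either direction. The median log2 fold change of the members tested was 0.24 in young and 0.36 in older mice, where the median over all genes was 0.00 and -0.01. Syt2 in young and Unc13c in older pituitary were too low to be tested. Among those called higher, Cplx1 and Syngr3 in young and Rims1 in older pituitary entered the test only through 200M libraries. Their WT libraries alone were too low for the filter. In 200H against WT, 14 of 52 members were higher and 6 lower in young pituitary, where 6.56% of all genes were higher and 5.72% lower (12.3% together). In older 200H pituitary 13 of 51 were higher and 2 lower, with 7.09% of all genes higher and 5.14% lower (12.2% together). Without 200H replicate 1 of the older cohort 15 were higher and 2 lower in 200H. Without 200M replicate 2 the older 200M counts were 21 higher and 3 lower, and without 200M replicate 3 they were 22 and 2.

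The cohorts share no library. Of 50 members tested in both, 19 were higher in both, which was 82.6% of the 23 called higher in young and 73.1% of the 26 called higher in older mice. For all 14080 genes tested in both, 64.4% of the genes called higher in young and 69.0% of those called higher in older mice were shared. Rab3d, Syt13 and Unc13b were lower in both cohorts, which was 37.5% of the 8 called lower in young and 100% of the 3 in older mice. For all genes, 55.0% of those called lower in young and 61.8% of those in older mice were shared. None of the 50 members was called in opposite directions, and 2 of all 14080 genes were. Across these 50 members the log2 fold changes of the cohorts had Pearson r = 0.91 and Spearman rho = 0.91, as a description, since genes are not independent replicates, and 47 had the same sign. A direct test of the difference between the cohorts called no member, where 0.0273% of 18344 genes were called. Of 52 members 1, Cadps2, had an unadjusted p under 0.05 (0.00332), as had 1257 of the 18344 genes.

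**Figure D1:**
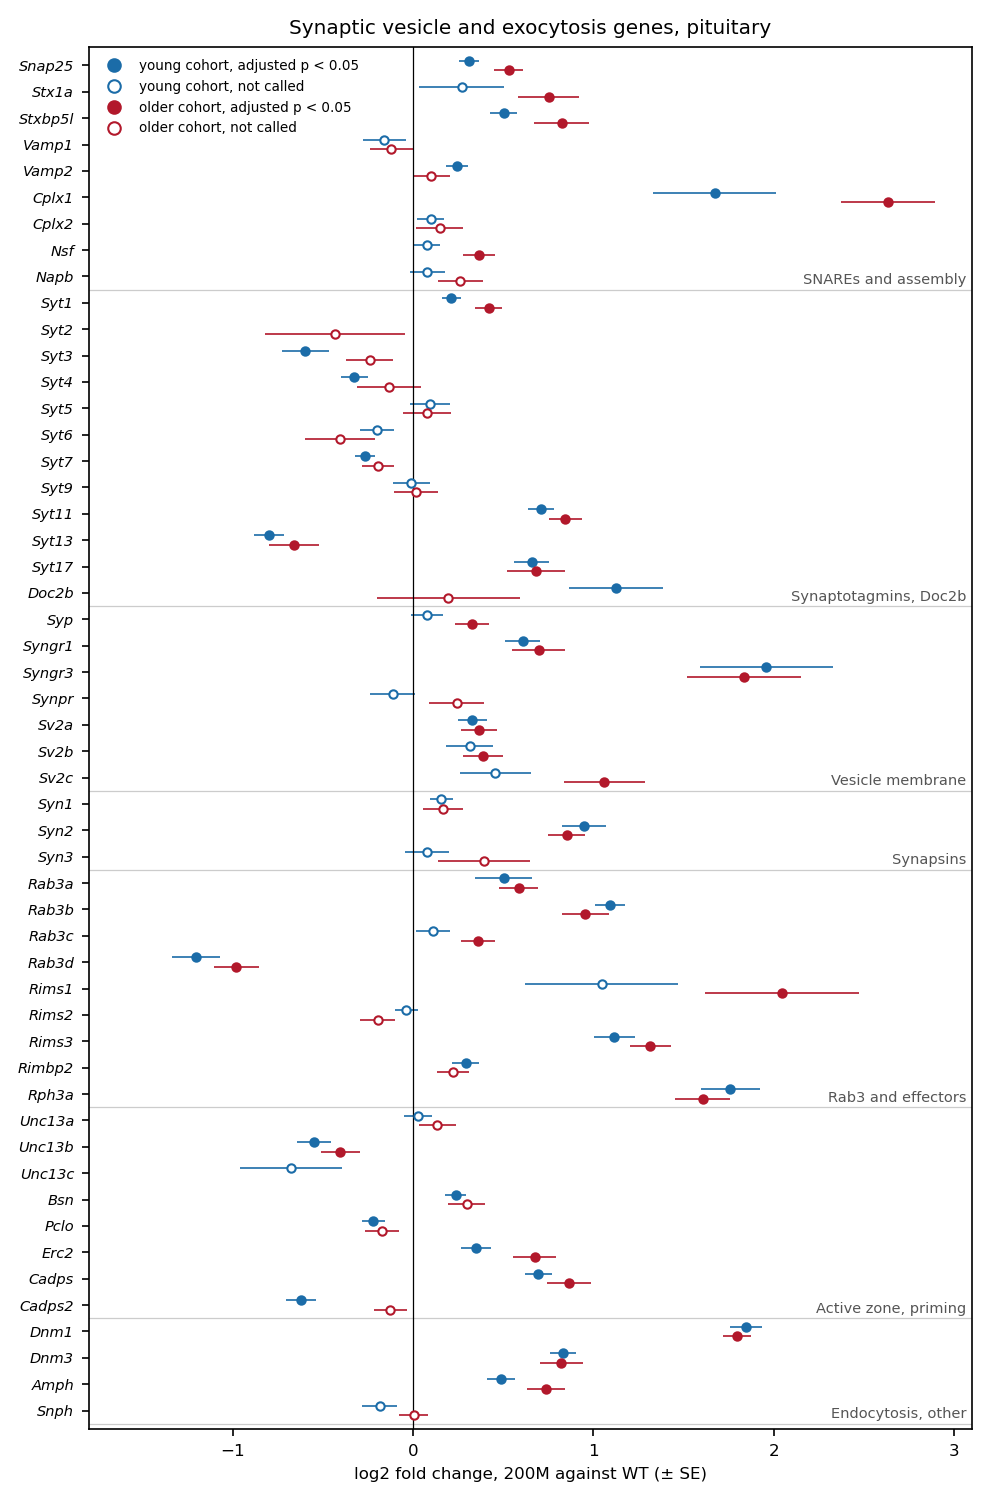
Log2 fold change of each member in pituitary, 200M against WT, with its standard error, by role; blue is the young and red the older cohort, and filled points had an adjusted p under 0.05. Dnm1, Rph3a, Rims3, Cplx1 and Syngr3 lie above 1 in both cohorts and Rab3d lies lowest in both. In young mice Cplx1 and Syngr3 rest on few WT counts.

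Markers of other cells differed between the same groups, in both directions. Of the genes typical of lactotropes, the prolactin-secreting cells, the summed level (Prl and Drd2) was 133656 to 158280 CPM in young WT, 28652 to 61804 in 200H and 39145 to 61326 in 200M pituitary, and 168429 to 210975 CPM in older WT and 53039 to 72448 in older 200M. Of 12 neuron markers tested in young pituitary, 6 were higher and 2 lower in 200M, and in older pituitary 9 of 13 were higher and 1 lower. The sum over the 14 neuron markers was 343 to 360 CPM in young WT and 380 to 494 CPM in young 200M, and 260 to 315 against 388 to 430 CPM in older mice. Sums of 6 astrocyte markers were 93.5 to 115 CPM in WT and 170 to 202 CPM in 200M in young, and 43.9 to 59.3 and 108 to 136 CPM in older mice. For 7 markers of pituicytes, the glia of the posterior lobe, they were 244 to 251 and 298 to 342 CPM in young, and 127 to 151 and 179 to 224 CPM in older mice. The sum of 7 oligodendrocyte markers was 75.7 to 85.4 CPM in WT against 47.9 to 53.7 CPM in 200M in young mice. In older mice it was 73.1 to 105 against 59.7 to 73.5 CPM, with overlap. Only 3 of these markers were tested in each cohort, and Mbp alone was called, lower in both. In each cohort 2 of the 3 had log2 fold changes above 0. Thyrotrope sums (3 markers) were 285 to 358 and 445 to 501 CPM in young, and 272 to 344 and 372 to 419 CPM in older mice. Macrophage sums (7 markers) were 44.1 to 55.0 and 65.2 to 76.6 CPM in young, and 100.3 to 124 and 135 to 196 CPM in older mice. Gonadotrope sums (5 markers) overlapped in young mice (344 to 478 and 320 to 415 CPM) and were lower in every older 200M library (418 to 505 and 258 to 336 CPM). Lhb was the only gonadotrope marker called lower, in both cohorts. Nr5a1 was called higher in both cohorts and Foxl2 in older mice. In older 200M, 4 of the 5 had log2 fold changes above 0. Sums of somatotrope, corticotrope, stem cell and endothelium markers overlapped between WT and 200M in both cohorts. Of the stem cell markers Sox9 was called higher and S100a1 lower in older 200M, and none was called in young 200M. Melanotrope sums (4 markers) also overlapped, at 991 to 1356 and 1066 to 1490 CPM in young, and 9126 to 12459 and 11908 to 25249 CPM in older mice. Of the melanotrope markers Pomc, Pax7 and Pcsk2 were called higher in older 200M, and Tbx19 in young 200M. Of the corticotrope markers Pomc and Crhr1 were called higher in older 200M, and Crhr1 and Tbx19 in young 200M. None of the neuron, astrocyte and pituicyte markers lacked counts throughout a pituitary group. Oxytocin and vasopressin together, which mark the axon terminals of the posterior lobe, reached at most 3.61 CPM in any young and 12.0 CPM in any older pituitary library. Their sums overlapped between genotypes in young mice (0.895 to 3.17 CPM in WT, 0.890 to 2.39 CPM in 200M) and were higher in 200M in older mice (3.64 to 6.81 CPM in WT, 9.13 to 12.0 CPM in 200M). The part of these markers in the members' changes was not tested, and in whole pituitary fewer cells of a type and less RNA per cell cannot be told apart. In older mice the marker levels, Prl among them, were also not separated from breeding history.

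Of the SNARE core and its assembly, 4 of 9 members were higher in young and 5 of 9 in older 200M pituitary, and none was called lower. Per kilobase of exon, Vamp2, the vesicle SNARE synaptobrevin-2, had the highest level of all members in WT pituitary (186 CPM per kb in young and 84.4 in older mice), and Snap25, a SNARE of the cell membrane, had 71.6 and 48.1 CPM per kb. Snap25 in young pituitary stood at 513, 465 and 481 CPM in the WT libraries, 492, 555, 524 and 576 CPM in 200H and 619, 587, 618 and 563 CPM in 200M. Its log2 fold change in 200M was 0.31 ± 0.06 (SE; adjusted p = 0.00114) in young and 0.53 ± 0.08 (adjusted p = 7.08e-04) in older mice. Vamp2 was higher by 0.24 ± 0.06 in young mice (adjusted p = 0.0107) and had 0.10 ± 0.10 in older mice (adjusted p = 0.529).

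Complexin 1 (Cplx1), which binds assembled SNAREs and controls when they fuse, was the member with the largest rise in older mice. Cplx1 in young pituitary stood at 0.919, 0.895 and 1.18 CPM in the WT libraries, 1.38, 1.95, 1.70 and 1.48 CPM in 200H and 4.38, 2.23, 2.71 and 3.43 CPM in 200M. Cplx1 in older pituitary stood at 1.39, 1.54, 1.62 and 2.29 CPM in the WT libraries, 7.06, 5.87, 7.13 and 5.40 CPM in 200H and 7.22, 12.0 and 12.8 CPM in 200M. The Cplx1 log2 fold change in 200M against WT was 1.67 ± 0.34 (SE; adjusted p = 0.00264) in young and 2.63 ± 0.26 (adjusted p = 2.79e-05) in older mice. In both cohorts every 200M library lay above every WT library, and the young WT libraries held 8 to 11 counts each. These WT libraries alone were too low for the filter, and Cplx1 was tested in young mice only through 200M libraries. Its paralog Cplx2, at 326 ± 29.2 CPM (mean ± SD, n = 3) in young WT, had log2 fold changes of 0.10 ± 0.07 and 0.15 ± 0.13 and was not called.

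Stxbp5l encodes tomosyn-2, a protein that ties up syntaxin and restrains fusion. Stxbp5l in young pituitary stood at 67.3, 67.7 and 61.4 CPM in the WT libraries, 77.2, 74.4, 87.1 and 83.2 CPM in 200H and 89.2, 95.1, 98.0 and 84.4 CPM in 200M. Stxbp5l in older pituitary stood at 16.7, 15.0, 14.8 and 22.0 CPM in the WT libraries, 23.1, 27.0, 21.6 and 21.1 CPM in 200H and 29.5, 27.4 and 35.0 CPM in 200M. The Stxbp5l log2 fold change in 200M against WT was 0.50 ± 0.08 (SE; adjusted p = 2.43e-04) in young and 0.82 ± 0.15 (adjusted p = 0.00290) in older mice. No 200M library overlapped a WT library in either cohort. Syntaxin 1a (Stx1a) and Nsf, the ATPase that takes spent SNARE complexes apart, were called only in older mice, with log2 fold changes of 0.75 and 0.36, beside 0.27 and 0.08 in young mice. Vamp1 (-0.16 and -0.12) and Napb, the beta form of SNAP that works with Nsf (0.08 and 0.26), were not called in either cohort.

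Synaptotagmins moved in both directions, with 4 higher and 4 lower among the 11 members of this role tested in young 200M pituitary, and 3 higher and 1 lower among 12 in older mice. The main calcium sensor of fast release, Syt1, was higher by 0.21 and 0.42 on the log2 scale (adjusted p = 0.00912 and 0.00228). Larger rises were seen in Syt11 and Syt17, synaptotagmins that do not act as calcium sensors. Syt11 in young pituitary stood at 78.5, 76.4 and 81.7 CPM in the WT libraries, 115, 114, 122 and 109 CPM in 200H and 125, 117, 139 and 129.7 CPM in 200M. Syt11 in older pituitary stood at 75.0, 81.6, 94.2 and 85.3 CPM in the WT libraries, 134, 129, 142 and 131 CPM in 200H and 160.3, 140.3 and 152 CPM in 200M. The Syt11 log2 fold change in 200M against WT was 0.71 ± 0.07 (SE; adjusted p = 6.54e-06) in young and 0.85 ± 0.09 (adjusted p = 5.45e-05) in older mice. The 200H libraries of Syt11 also lay above all WT libraries in both cohorts. Syt17 in young pituitary stood at 26.9, 27.3 and 22.1 CPM in the WT libraries, 36.0, 35.9, 44.9 and 38.4 CPM in 200H and 38.2, 38.3, 42.2 and 40.05 CPM in 200M. Syt17 in older pituitary stood at 14.3, 18.9, 16.8 and 25.0 CPM in the WT libraries, 37.7, 38.8, 39.4 and 30.4 CPM in 200H and 31.4, 29.4 and 30.2 CPM in 200M. The Syt17 log2 fold change in 200M against WT was 0.66 ± 0.10 (SE; adjusted p = 1.81e-04) in young and 0.68 ± 0.16 (adjusted p = 0.0107) in older mice. All 200H and 200M libraries of Syt17 lay above all WT libraries, and 200M against 200H gave 0.03 ± 0.09 and -0.27 ± 0.11, neither of them called.

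Syt13, another synaptotagmin without calcium binding, was the member of this role that fell in both cohorts. Syt13 in young pituitary stood at 85.0, 91.8 and 90.8 CPM in the WT libraries, 59.2, 58.8, 48.0 and 53.0 CPM in 200H and 49.1, 44.4, 54.2 and 55.6 CPM in 200M. Syt13 in older pituitary stood at 108, 161, 172 and 139 CPM in the WT libraries, 84.4, 77.3, 99.7 and 94.3 CPM in 200H and 99.3, 94.4 and 80.8 CPM in 200M. The Syt13 log2 fold change in 200M against WT was -0.80 ± 0.08 (SE; adjusted p = 8.10e-06) in young and -0.66 ± 0.14 (adjusted p = 0.00570) in older mice. All libraries of 200H and 200M lay below all WT libraries, in young as in older mice. In 200H the log2 fold change was -0.69 ± 0.09 and -0.70 ± 0.13 (adjusted p = 2.33e-04 and 0.00480).

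Syt3, Syt4 and Syt7 were called lower in young mice only. Syt3 in young pituitary stood at 20.3, 17.5 and 21.8 CPM in the WT libraries, 11.2, 14.9, 11.8 and 10.8 CPM in 200H and 15.3, 11.8, 13.1 and 11.4 CPM in 200M. Syt3 in older pituitary stood at 20.7, 27.7, 24.7 and 25.6 CPM in the WT libraries, 25.8, 17.0, 26.7 and 21.9 CPM in 200H and 22.7, 18.7 and 22.0 CPM in 200M. In the older cohort the groups of Syt3 overlapped and the log2 fold change was -0.24 ± 0.13, against -0.60 ± 0.13 in young mice (adjusted p = 0.00399). Syt7 in young pituitary stood at 358, 324 and 343 CPM in the WT libraries, 268, 294, 275 and 282 CPM in 200H and 285, 284, 279 and 277 CPM in 200M. Syt7 in older pituitary stood at 263, 313, 308 and 261 CPM in the WT libraries, 242, 213, 228 and 278 CPM in 200H and 253, 250.3 and 246 CPM in 200M. Syt7 is a high-affinity calcium sensor of slow release, and its 200M libraries lay below all WT libraries in both cohorts. The log2 fold change was -0.26 ± 0.05 in young (adjusted p = 0.00297) and -0.20 ± 0.09 in older mice (adjusted p = 0.134).

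Syt4 in young pituitary stood at 472, 613 and 494 CPM in the WT libraries, 431, 491, 317 and 435 CPM in 200H and 427, 412, 419 and 405 CPM in 200M. Syt4 in older pituitary stood at 232, 347, 269 and 183 CPM in the WT libraries, 211, 166, 218 and 263 CPM in 200H and 253, 259 and 192 CPM in 200M. Syt4, which sits on dense-core vesicles, was among the most abundant members per kilobase, and its fall of -0.33 ± 0.08 (adjusted p = 0.00658) in young mice stood beside -0.13 ± 0.18 in older mice, where the libraries overlapped. Without WT replicate 2 the young value was -0.20 and still called. The direct tests of these 3 genes between cohorts had unadjusted p of 0.117, 0.517 and 0.873. Syt5, Syt6 and Syt9 were not called in either cohort, with log2 fold changes between -0.41 and 0.09.

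Doc2b, a calcium sensor of spontaneous release, varied widely within groups. Doc2b in young pituitary stood at 16.7, 9.51 and 9.01 CPM in the WT libraries, 27.7, 38.6, 19.2 and 31.4 CPM in 200H and 28.6, 28.8, 30.3 and 12.6 CPM in 200M. Doc2b in older pituitary stood at 24.9, 28.5, 11.9 and 59.5 CPM in the WT libraries, 22.4, 36.8, 19.4 and 29.1 CPM in 200H and 20.2, 45.0 and 43.7 CPM in 200M. The young 200M library 4 lay within the WT range while the other three lay above it, and in older mice the range of the 4 WT libraries took in all others. The log2 fold change was 1.13 ± 0.26 in young (adjusted p = 0.00625) and 0.20 ± 0.39 in older mice (adjusted p = 0.769).

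The vesicle membrane proteins rose or did not pass the test, 3 of 7 higher in young and 6 of 7 in older 200M pituitary. Syngr1 in young pituitary stood at 19.7, 18.7 and 17.7 CPM in the WT libraries, 23.3, 23.1, 27.4 and 19.9 CPM in 200H and 28.0, 29.2, 29.1 and 26.3 CPM in 200M. Syngr1 in older pituitary stood at 37.1, 51.5, 55.4 and 65.9 CPM in the WT libraries, 69.8, 70.2, 72.1 and 74.1 CPM in 200H and 89.2, 81.3 and 84.9 CPM in 200M. Synaptogyrin 1 is an abundant four-span membrane protein of synaptic vesicles, and none of its 200M libraries overlapped WT. The Syngr1 log2 fold change in 200M against WT was 0.61 ± 0.10 (SE; adjusted p = 3.32e-04) in young and 0.70 ± 0.15 (adjusted p = 0.00553) in older mice. Syngr3, its neuronal relative, was near the limit of detection in WT. Syngr3 in young pituitary stood at 0.715, 0.783 and 1.07 CPM in the WT libraries, 2.06, 2.71, 1.90 and 3.38 CPM in 200H and 3.46, 2.39, 2.71 and 5.09 CPM in 200M. Syngr3 in older pituitary stood at 2.08, 2.05, 1.01 and 4.36 CPM in the WT libraries, 2.78, 4.91, 7.53 and 5.72 CPM in 200H and 7.85, 9.59 and 9.32 CPM in 200M. The Syngr3 log2 fold change in 200M against WT was 1.96 ± 0.37 (SE; adjusted p = 0.00141) in young and 1.83 ± 0.32 (adjusted p = 0.00169) in older mice. The young WT libraries held 7 to 10 counts of Syngr3, and the 200M libraries of both cohorts lay above all WT libraries. Young Syngr3 entered the test only through 200M libraries, where it was higher.

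Of the SV2 proteins, Sv2a was higher in both cohorts (0.33 and 0.37 on the log2 scale), while Sv2b (0.31 and 0.39) and Sv2c (0.46 and 1.06) were called only in older mice. The classical vesicle marker synaptophysin (Syp) was called only in older mice, at 0.32 ± 0.09 (adjusted p = 0.0284), with 0.08 ± 0.09 in young mice. Synaptoporin (Synpr) was not called, at -0.11 and 0.24.

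Among the 3 synapsins, which tether vesicles to the cytoskeleton, Syn2 was the only one called in 200M against WT. Syn2 in young pituitary stood at 37.8, 35.7 and 38.92 CPM in the WT libraries, 66.1, 77.8, 58.3 and 71.3 CPM in 200H and 81.9, 74.1, 75.8 and 53.1 CPM in 200M. Syn2 in older pituitary stood at 56.7, 67.1, 70.0 and 59.3 CPM in the WT libraries, 114, 100.03, 129 and 137 CPM in 200H and 107, 129.9 and 104 CPM in 200M. The Syn2 log2 fold change in 200M against WT was 0.95 ± 0.12 (SE; adjusted p = 4.83e-05) in young and 0.85 ± 0.10 (adjusted p = 1.34e-04) in older mice. Every 200H and 200M library of Syn2 lay above every WT library. Syn1, 282 CPM in young WT pituitary, had 0.16 ± 0.06 and 0.17 ± 0.11, and Syn3 had 0.08 ± 0.12 and 0.39 ± 0.25. Exons of Syn3 overlap 1733 bases of Timp3 on the other strand. In the unstranded older libraries, reads within these bases cannot be assigned to either gene by strand.

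The Rab3 family split. Rab3b, a Rab3 of pituitary and neuroendocrine cells, rose. Rab3b in young pituitary stood at 47.5, 38.6 and 41.4 CPM in the WT libraries, 75.7, 65.6, 101 and 74.5 CPM in 200H and 86.5, 94.9, 89.1 and 88.9 CPM in 200M. Rab3b in older pituitary stood at 29.5, 37.5, 43.9 and 39.6 CPM in the WT libraries, 57.6, 80.0, 62.4 and 45.9 CPM in 200H and 63.5, 84.0 and 69.6 CPM in 200M. The Rab3b log2 fold change in 200M against WT was 1.09 ± 0.08 (SE; adjusted p = 3.84e-07) in young and 0.96 ± 0.13 (adjusted p = 3.36e-04) in older mice. Rab3d, known best from secretory granules of exocrine and endocrine cells, fell in the same libraries. Rab3d in young pituitary stood at 39.8, 28.0 and 40.1 CPM in the WT libraries, 18.4, 23.9, 16.8 and 11.2 CPM in 200H and 13.6, 15.2, 17.8 and 15.3 CPM in 200M. Rab3d in older pituitary stood at 73.1, 94.8, 82.7 and 71.4 CPM in the WT libraries, 48.0, 45.6, 56.7 and 50.8 CPM in 200H and 47.3, 37.5 and 38.1 CPM in 200M. The Rab3d log2 fold change in 200M against WT was -1.20 ± 0.13 (SE; adjusted p = 1.41e-05) in young and -0.98 ± 0.12 (adjusted p = 1.98e-04) in older mice. For both genes all 200M libraries were separate from all WT libraries. Rab3a, the main neuronal form, was higher in both cohorts (0.50 and 0.58, adjusted p = 0.0338 and 0.00290), and Rab3c only in older mice (0.11 and 0.36).

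Effectors of Rab3 and a RIM rose as well. Rabphilin (Rph3a) is a Rab3 effector on vesicles. Rph3a in young pituitary stood at 7.56, 10.5 and 8.47 CPM in the WT libraries, 21.3, 19.5, 25.6 and 24.8 CPM in 200H and 24.1, 29.8, 27.6 and 37.8 CPM in 200M. Rph3a in older pituitary stood at 5.98, 8.80, 6.87 and 6.65 CPM in the WT libraries, 16.5, 17.0, 20.4 and 17.5 CPM in 200H and 21.2, 21.2 and 23.2 CPM in 200M. The Rph3a log2 fold change in 200M against WT was 1.76 ± 0.16 (SE; adjusted p = 2.73e-06) in young and 1.61 ± 0.15 (adjusted p = 2.20e-05) in older mice. Rims3 encodes a short RIM that lacks the Rab3-binding part. Rims3 in young pituitary stood at 18.3, 17.9 and 22.7 CPM in the WT libraries, 32.7, 30.8, 45.2 and 34.0 CPM in 200H and 47.0, 36.4, 43.0 and 42.0 CPM in 200M. Rims3 in older pituitary stood at 24.6, 29.3, 26.5 and 28.2 CPM in the WT libraries, 52.2, 58.5, 59.2 and 54.6 CPM in 200H and 55.8, 75.1 and 72.1 CPM in 200M. The Rims3 log2 fold change in 200M against WT was 1.11 ± 0.11 (SE; adjusted p = 6.34e-06) in young and 1.32 ± 0.11 (adjusted p = 9.57e-06) in older mice. For Rph3a and Rims3 the 200H libraries were also all above WT, and their log2 fold changes in 200H were 1.38 and 0.87 in young and 1.31 and 1.04 in older mice.

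Rims1, the full-length RIM of many central synapses, ranged from 0.511 to 1.78 CPM in the young pituitary libraries. It was called only in older mice, at 2.05 ± 0.43 (adjusted p = 0.00521), from libraries of 2 to 10 counts in WT and 10 to 38 counts in 200M. Those WT libraries alone were too low for the filter, so older Rims1 entered the test only through 200M libraries. Rims2, the RIM with the highest level in pituitary, was not called. Rims2 in young pituitary stood at 172, 179 and 175 CPM in the WT libraries, 168, 162, 173 and 165 CPM in 200H and 164, 168, 162 and 183 CPM in 200M. Rims2 in older pituitary stood at 39.7, 41.3, 48.7 and 42.8 CPM in the WT libraries, 38.0, 37.1, 39.6 and 39.0 CPM in 200H and 36.9, 37.2 and 38.3 CPM in 200M. The young libraries overlapped and the older 200M libraries lay below WT, with log2 fold changes of -0.04 ± 0.06 and -0.20 ± 0.10 (adjusted p = 0.728 and 0.166). Rimbp2, which links RIMs to calcium channels, was higher in young 200M (0.29 ± 0.08, adjusted p = 0.0125) and had 0.22 ± 0.09 in older mice.

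**Figure D2:**
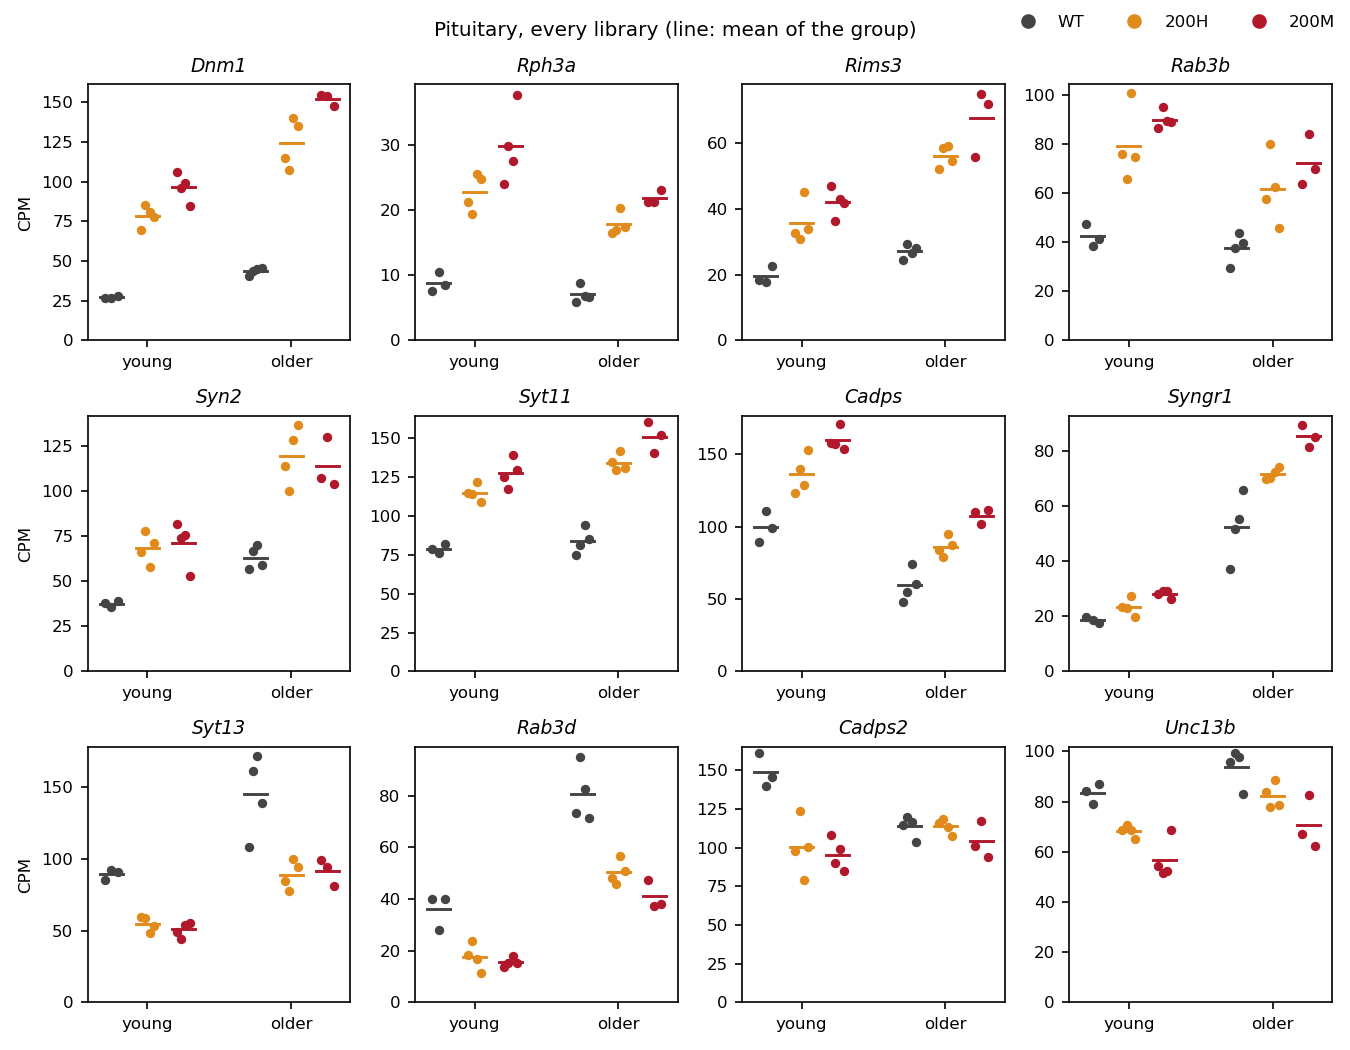
CPM of 12 members in every pituitary library, by genotype (grey WT, orange 200H, red 200M) within the young and the older cohort; points are libraries, lines are group means, and each axis starts at 0. In the upper 2 rows the WT libraries lie lowest in both cohorts, and in the lower row they lie highest, except that older Cadps2 libraries of all genotypes and older Unc13b libraries of WT and 200H overlap.

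Active zone and priming factors also moved both ways, 3 of 8 higher and 3 of 8 lower in young 200M pituitary, and 2 higher and 1 lower among 7 in older mice. The CAPS paralogs, which prime dense-core vesicles, differed in direction in young mice. Cadps in young pituitary stood at 89.4, 110.5 and 99.3 CPM in the WT libraries, 123, 139.7, 129 and 153 CPM in 200H and 158, 157, 171 and 153 CPM in 200M. Cadps in older pituitary stood at 48.2, 54.5, 74.2 and 60.4 CPM in the WT libraries, 83.8, 78.8, 94.9 and 87.0 CPM in 200H and 109.7, 102 and 111 CPM in 200M. The Cadps log2 fold change in 200M against WT was 0.70 ± 0.08 (SE; adjusted p = 1.29e-05) in young and 0.86 ± 0.12 (adjusted p = 4.00e-04) in older mice. Cadps2 in young pituitary stood at 161, 139.6 and 146 CPM in the WT libraries, 97.9, 124, 78.9 and 101 CPM in 200H and 108, 89.8, 98.9 and 85.1 CPM in 200M. Cadps2 in older pituitary stood at 114, 119.8, 117 and 104 CPM in the WT libraries, 116, 119, 113 and 108 CPM in 200H and 101, 117 and 93.6 CPM in 200M. The Cadps2 log2 fold change in 200M against WT was -0.62 ± 0.08 (SE; adjusted p = 7.99e-05) in young and -0.13 ± 0.09 (adjusted p = 0.377) in older mice. Cadps libraries of 200M lay above WT in both cohorts, while Cadps2 libraries of 200M lay below WT in young mice and overlapped WT in older mice.

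Unc13b encodes Munc13-2, a priming factor. Unc13b in young pituitary stood at 84.3, 79.2 and 87.2 CPM in the WT libraries, 68.7, 70.8, 68.8 and 65.2 CPM in 200H and 54.2, 51.8, 52.3 and 68.7 CPM in 200M. Unc13b in older pituitary stood at 95.6, 99.6, 97.6 and 83.0 CPM in the WT libraries, 83.9, 78.0, 88.6 and 78.7 CPM in 200H and 67.3, 82.5 and 62.1 CPM in 200M. The Unc13b log2 fold change in 200M against WT was -0.55 ± 0.09 (SE; adjusted p = 7.21e-04) in young and -0.41 ± 0.11 (adjusted p = 0.0194) in older mice. All 200M libraries lay below all WT libraries, the nearest being 82.5 CPM in 200M beside 83.0 CPM in WT in the older cohort. The older call was lost without WT replicate 2, 200M replicate 1 or 200M replicate 3 (-0.37 to -0.32). Unc13a (Munc13-1) had 0.03 ± 0.08 and 0.13 ± 0.10 and was not called, and Unc13c (-0.68 ± 0.28, 32 to 42 counts in WT libraries) was not called in young mice.

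The large scaffolds of the active zone differed in sign in young mice. Pclo in young pituitary stood at 1409, 1440.4 and 1726 CPM in the WT libraries, 1325, 1338, 1139 and 1373 CPM in 200H and 1347, 1289.9, 1272 and 1271 CPM in 200M. Pclo in older pituitary stood at 385, 375, 457 and 360.1 CPM in the WT libraries, 403, 316, 431 and 452 CPM in 200H and 338, 372 and 338 CPM in 200M. Piccolo (Pclo) fell by 0.22 ± 0.06 on the log2 scale in young mice (adjusted p = 0.0235), with young WT library u well above the other WT libraries, and had -0.18 ± 0.09 in older mice. Without that library the young value was -0.12 and no longer called, and it also lost its call, at -0.21 to -0.22, without 200M replicate 2, 3 or 4. Bassoon (Bsn) was higher in young mice (0.24 ± 0.06, adjusted p = 0.00845) and had 0.30 ± 0.10 in older mice (adjusted p = 0.0583). Erc2, the ELKS-family scaffold, was higher in both (0.35 and 0.67, adjusted p = 0.00717 and 0.00202).

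Genes of vesicle retrieval rose, 3 of 4 in each cohort. Dnm1 encodes the neuronal dynamin, the GTPase that pinches vesicles off the membrane. Dnm1 in young pituitary stood at 26.5, 26.9 and 28.0 CPM in the WT libraries, 69.8, 85.1, 80.7 and 77.8 CPM in 200H and 106, 96.0, 99.1 and 84.4 CPM in 200M. Dnm1 in older pituitary stood at 40.7, 44.0, 44.9 and 45.5 CPM in the WT libraries, 115, 107, 140.3 and 135 CPM in 200H and 155, 154 and 148 CPM in 200M. The Dnm1 log2 fold change in 200M against WT was 1.85 ± 0.09 (SE; adjusted p = 4.25e-09) in young and 1.80 ± 0.08 (adjusted p = 3.09e-08) in older mice. In 200M the fold was 3.60 in young and 3.47 in older mice, in 200H 2.91 and 2.84, and it had the smallest p of all members in both cohorts. The WT libraries of Dnm1 lay close together within a cohort, and all 200H and 200M libraries lay far above them.

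Dnm3, a further neuronal dynamin, and amphiphysin (Amph), which recruits dynamin to the neck of a budding vesicle, rose with it. Dnm3 in young pituitary stood at 89.3, 89.1 and 95.4 CPM in the WT libraries, 135, 144, 153 and 165 CPM in 200H and 158, 170.4, 167 and 146 CPM in 200M. Dnm3 in older pituitary stood at 39.9, 34.2, 43.1 and 48.4 CPM in the WT libraries, 41.1, 58.8, 56.3 and 53.8 CPM in 200H and 73.2, 78.9 and 66.5 CPM in 200M. The Dnm3 log2 fold change in 200M against WT was 0.83 ± 0.07 (SE; adjusted p = 1.09e-06) in young and 0.82 ± 0.12 (adjusted p = 4.35e-04) in older mice. Amph in young pituitary stood at 47.7, 49.5 and 50.2 CPM in the WT libraries, 58.5, 59.9, 60.0 and 61.8 CPM in 200H and 62.3, 66.8, 69.4 and 74.4 CPM in 200M. Amph in older pituitary stood at 67.0, 62.8, 73.6 and 85.4 CPM in the WT libraries, 78.3, 83.9, 88.6 and 87.1 CPM in 200H and 115, 117 and 129 CPM in 200M. The Amph log2 fold change in 200M against WT was 0.49 ± 0.08 (SE; adjusted p = 4.24e-04) in young and 0.74 ± 0.11 (adjusted p = 4.38e-04) in older mice. For both genes all 200M libraries lay above all WT libraries in each cohort. Syntaphilin (Snph), which holds mitochondria in axons and binds syntaxin, was not called (-0.18 and 0.00).

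The second copy of the allele made a smaller difference than the first by the count of calls. In 200M against 200H no member was called in young pituitary by edgeR, where 0.0383% of all 18271 genes were called. DESeq2 also called 0 members. By edgeR 14 of 52 members and 1081 of the 18271 genes had an unadjusted p under 0.05. In older pituitary Amph alone was called of 51 members, at 0.50 ± 0.08 (adjusted p = 0.0373), where 0.121% of 14862 genes were called. There 21 of the 51 members and 1575 of the 14862 genes had an unadjusted p under 0.05. Amph lay at 115 to 129 CPM in the older 200M libraries and at 78.3 to 88.6 CPM in 200H, without overlap. That call was lost when any library other than 200H replicate 2 was left out. The members' log2 fold changes were above 0 for 36 of 52 members in young and 37 of 51 in older mice, with medians of 0.05 and 0.12 beside 0.00 and 0.00 over all genes.

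Several of the members that rose were low in WT pituitary and high in hypothalamus. CPM were scaled within a tissue and cohort and not between tissues. The pituitary markers took up much of the pituitary counts, less in 200M than in WT. Levels of the tissues therefore compare only roughly, here and in the ratios below. Dnm1 averaged 27.1 CPM in young WT pituitary, 96.3 CPM in 200M pituitary and 565 CPM in WT hypothalamus, so that the 200M pituitary reached 17.1% of the level in WT hypothalamus. Rph3a went from 8.85 to 29.8 CPM beside 293 CPM in hypothalamus, Rims3 from 19.6 to 42.1 beside 243 CPM, Syn2 from 37.5 to 71.3 beside 282 CPM, and Cplx1 from 0.998 to 3.19 beside 87.8 CPM. Rab3b went from 42.5 to 89.8 CPM and passed the 56.7 CPM of hypothalamus. Rab3d, the member that fell most, was at 36.0 CPM in WT and 15.5 CPM in 200M pituitary beside 2.51 CPM in hypothalamus.

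To keep libraries apart, members were split by the WT levels of one cohort and their calls were read in the other. Of 22 members at least 4 times higher in older hypothalamus than in older pituitary (WT, 0.5 CPM added to both), 12 were called higher and 0 lower in young 200M pituitary, and of the other 29 tested, 11 were higher and all 8 of the lower calls were found there. Among all genes with that ratio, 44.9% of 1326 were higher and 2.71% lower, and among the remaining 13421 genes 9.23% were higher and 11.8% lower. With levels from young mice and calls from older mice, 14 of 18 members with the high ratio were higher and 0 lower, beside 57.2% and 1.52% of all 922 such genes. Of the other 33 members 12 were higher and 3 lower, beside 8.75% and 10.6% of 13193 genes. The members at a high ratio thus stood near all genes of that kind in young and above them in older mice, and those at a low ratio were called higher more often than all genes in both cohorts, as counts without a test.

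**Figure D3:**
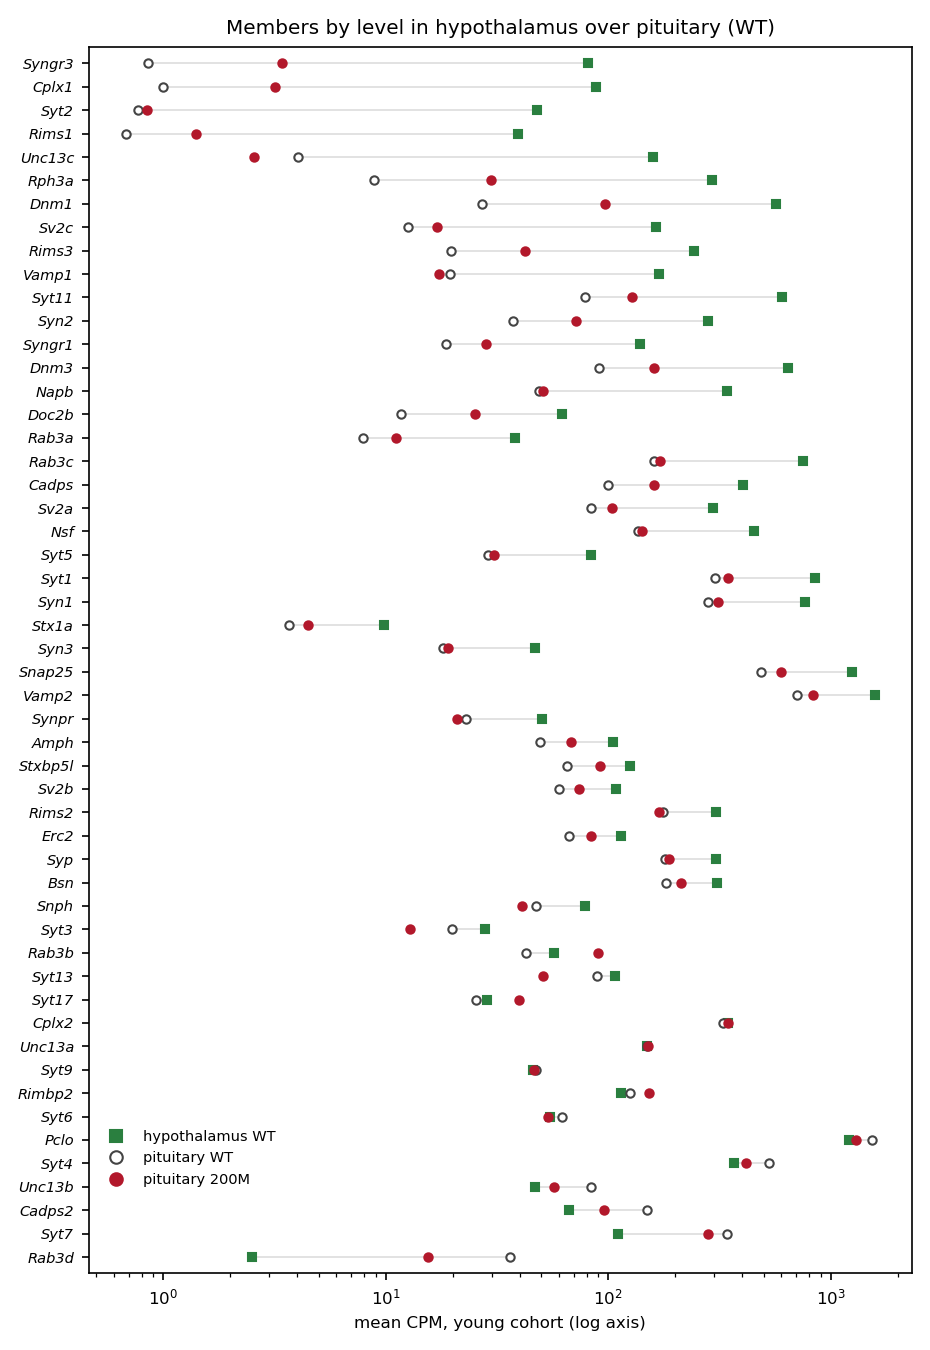
Mean CPM of each member in young mice on a log axis: hypothalamus WT (green squares), pituitary WT (open circles) and pituitary 200M (red circles), ordered by the ratio of hypothalamus to pituitary in WT. The red circle lies to the right of the open one for most genes at the top, such as Syngr3, Cplx1, Rph3a and Dnm1, and to the left for the lowest 6, Pclo to Rab3d.

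In hypothalamus no member was called in any of the 6 comparisons of genotypes by edgeR. In young mice 1, 1 and 3 of 52 members had an unadjusted p under 0.05 in 200M against WT, 200H against WT and 200M against 200H. For all genes 847 of 14988, 585 of 14877 and 682 of 14812 had such a p, and 0.02%, 0.0202% and 0.0% were called. DESeq2 called 0 members in each. In older mice 9, 3 and 13 of 52 members had such a p, beside 2904 of 16067, 445 of 15910 and 3144 of 16156 genes. Of all genes 0.00622%, 0.0% and 0.0% were called by edgeR. DESeq2 called 4, 0 and 4 members, all of them lower in 200M. The share of all genes that DESeq2 called is not given here. For older 200M hypothalamus the paper's own DESeq2 comparison reports more genes than edgeR called. In young hypothalamus the log2 fold changes of 200M against WT ran from -0.24 to 0.30. Dnm1 in young hypothalamus stood at 554, 567, 561 and 577 CPM in the WT libraries, 589, 544, 581 and 511 CPM in 200H and 459, 549, 584 and 574 CPM in 200M. Dnm1 thus overlapped between all genotypes there, at -0.06 ± 0.07.

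The difference between the tissues was itself tested, with libraries of different tissues taken as independent although some can share a mouse. The 200M effect differed between pituitary and hypothalamus for 24 of 52 members in young mice (18 more positive and 6 more negative in pituitary), where 10.5% of 17789 genes differed. In older mice 27 of 52 differed (25 and 2), where 17.5% of 17180 genes did. Dnm1 had the smallest p in both, with differences of 1.91 ± 0.11 and 1.92 ± 0.11 on the log2 scale. The 6 more negative in young mice were Cadps2, Syt13, Syt7, Unc13b, Syt3 and Rab3d, and the 2 in older mice were Rab3d and Syt13.

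**Figure D4:**
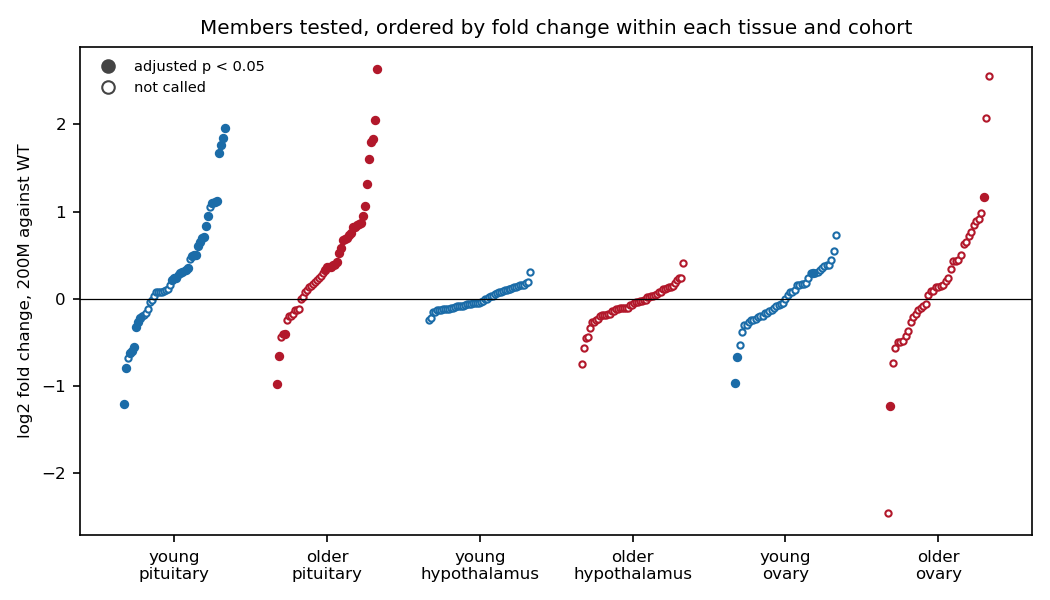
Log2 fold change of 200M against WT for every member tested, sorted within each tissue and cohort; filled points had an adjusted p under 0.05. Filled points spread from -1.20 to 1.96 in young and -0.98 to 2.63 in older pituitary, none is filled in hypothalamus, and 3 and 2 are filled in young and older ovary.

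In ovary 45 and 41 of 52 were tested in 200M against WT in young and older mice. Called were 3 in young ovary (2.58% of 19250 genes) and 2 in older ovary (2.71% of 17792 genes). Rims2 was lower in both cohorts. Rims2 in young ovary stood at 24.5, 25.4, 23.1 and 26.7 CPM in the WT libraries, 21.0, 27.9, 21.0 and 29.1 CPM in 200H and 14.9, 18.0, 17.6 and 12.4 CPM in 200M. Rims2 in older ovary stood at 8.29, 12.2, 11.5 and 10.2 CPM in the WT libraries, 13.1, 9.26, 7.61 and 8.35 CPM in 200H and 5.82, 4.62, 4.96 and 2.68 CPM in 200M. The log2 fold changes of Rims2 were -0.66 ± 0.12 (adjusted p = 0.0149) and -1.23 ± 0.27 (adjusted p = 0.0489), with 200M below WT in every library, whereas Rims2 in pituitary was not called. The young call was lost without WT replicate 4 or 200M replicate 1 (-0.64 and -0.63), and the older call without any 1 library other than WT replicate 1 (-1.37 to -1.04). The tissues differed for Rims2 in both cohorts, by 0.63 ± 0.13 (adjusted p = 0.00277) and 1.06 ± 0.26 (adjusted p = 0.0305).

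Unc13b moved the other way in young ovary. Unc13b in young ovary stood at 75.7, 83.3, 85.3 and 73.4 CPM in the WT libraries, 109, 87.0, 78.5 and 92.4 CPM in 200H and 99.0, 90.6, 103 and 98.0 CPM in 200M. In ovary it changed by 0.29 ± 0.07 on the log2 scale (adjusted p = 0.0494), beside -0.55 ± 0.09 in pituitary, and the difference of -0.84 ± 0.13 was called (adjusted p = 1.64e-04). Syn1 was lower in young ovary (-0.97 ± 0.17, adjusted p = 0.0106) and Syngr1 higher in older ovary (1.17 ± 0.19, adjusted p = 0.0201). Syn1 in young ovary stood at 17.3, 10.8, 17.1 and 13.3 CPM in the WT libraries, 4.84, 9.07, 6.47 and 11.1 CPM in 200H and 7.63, 8.24, 7.02 and 7.08 CPM in 200M. Syngr1 in older ovary stood at 16.7, 14.3, 15.7 and 19.5 CPM in the WT libraries, 22.2, 14.5, 12.5 and 21.6 CPM in 200H and 48.1, 26.1, 35.1 and 38.86 CPM in 200M. The WT and 200M libraries were separate for both genes. The Syngr1 call was lost without WT replicate 2 or 3 or 200M replicate 1 or 4 (1.02 to 1.14), and the Unc13b call without any 1 library other than WT replicate 3 or 200M replicate 2 (0.25 to 0.31).

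In older ovary 200M against 200H called 2 of 42 members (1.61% of 17855 genes). Doc2b in older ovary stood at 55.3, 42.7, 61.6 and 63.5 CPM in the WT libraries, 59.4, 51.7, 56.1 and 58.1 CPM in 200H and 85.4, 76.1, 77.9 and 77.3 CPM in 200M. Doc2b was higher in 200M than in 200H by 0.48 ± 0.09 (adjusted p = 0.0387). Stxbp5l in older ovary stood at 0.617, 5.88, 4.40 and 1.29 CPM in the WT libraries, 1.67, 3.34, 2.47 and 1.66 CPM in 200H and 0.560, 0.243, 0.400 and 0.918 CPM in 200M. Stxbp5l differed between them by -2.05 ± 0.41 on the log2 scale (adjusted p = 0.04996), and the WT libraries, from 0.617 to 5.88 CPM, overlapped both. Leaving out any library ended the Stxbp5l call (-2.46 to -1.82), and leaving out any but 200M replicate 2 ended the Doc2b call (0.44 to 0.51). No member was called in 200H against WT in young (0.0051% of genes) or older ovary (0.0%), or in 200M against 200H in young ovary (0.0%). An unadjusted p under 0.05 was seen in 6, 0 and 1 members. It was seen in 1384 of 19621, 1160 of 17605 and 648 of 19259 genes. DESeq2 also called 0 in these 3 comparisons. Between pituitary and ovary the 200M effect differed for 19 of 52 members in young mice (10.1% of 22130 genes) and 11 of 52 in older mice (5.77% of 18736 genes), with Dnm1 more positive and Rab3d and Syt13 more negative in pituitary in both. The 52 include 7 members in young and 11 in older mice that were too low to be tested in ovary alone. Cplx1 in both cohorts and Syt17 in older mice are such members among those that differed, so their ovary side rests on few counts.

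A wider list of 92 exocytosis genes in the tables that are not members held 82 and 83 genes tested in young and older pituitary. Of these 18 were higher and 9 lower in young, and 20 higher and 9 lower in older 200M than in WT, where 21.5% and 21.4% of all genes were called. In all, 17 were called in the same direction in both cohorts (11 higher and 6 lower). Of those with the largest mean change, the vesicular monoamine transporter Slc18a2 (VMAT2) had log2 fold changes of 1.61 ± 0.21 and 2.51 ± 0.31 in young and older mice, and its paralog Slc18a1 (VMAT1) -0.91 ± 0.19 and -0.77 ± 0.21. Vamp8, a SNARE of endosomes and secretory granules outside neurons, had -0.97 ± 0.25 and -0.94 ± 0.09, and Stxbp2 (Munc18-2), the partner of non-neuronal syntaxins, had -0.65 ± 0.08 and -0.70 ± 0.09. Syt12 had 1.69 ± 0.27 and 1.63 ± 0.22 and Stxbp6, which binds SNAREs, had 0.43 ± 0.14 and 0.95 ± 0.18. Sytl1, a synaptotagmin-like Rab effector of epithelial and blood cells, had -2.78 ± 0.37 and -2.33 ± 0.18, the largest fall of the list.

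Promoters of 41 of the 52 members were at hand (RefSeq, GRCm38.p6, 250 bases before to 50 after the start site). ZEB1 binds E-boxes of the forms CAGGTG and CAGGTA, which were searched on both strands. CAGGTG was in the window of 13 of 41 members (31.7%) and of 22.6% of the 27025 genes with an entry, and CAGGTA in 4 of 41 (9.76%) and 13.6%. By the calls of 200M against WT in either cohort, CAGGTG was in 4 of 5 members called lower, 6 of 25 called higher and 3 of 11 not called. The members' windows had a median GC content of 62.3%, and all genes' 52.7%. The partial REST sites TTCAGCACC and GGACAGCGC were in 2 and 1 of 41 members (Syn1 and Unc13a, and Unc13a), and in 0.433% and 0.477% of all genes. A match is a string of letters and was not tested for binding.

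The 250 bases before the start are shown for the 5 lower members with an entry and for Dnm1, which rose most clearly, to set the matches (capitals, CACCTG being CAGGTG on the other strand) in their surroundings. The match begins at position -177 in Syt3, -194 in Unc13b, -45 in Pclo, -46 in Cadps2 and -142 in Dnm1 relative to the start, and the window of Rab3d has none.
Syt3, chr7:44383876-44384125, plus strand: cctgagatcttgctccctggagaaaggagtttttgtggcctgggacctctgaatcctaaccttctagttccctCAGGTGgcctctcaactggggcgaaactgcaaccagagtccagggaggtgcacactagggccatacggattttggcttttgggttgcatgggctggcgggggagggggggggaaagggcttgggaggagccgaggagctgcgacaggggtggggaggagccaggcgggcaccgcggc
Unc13b, chr4:43058703-43058952, plus strand: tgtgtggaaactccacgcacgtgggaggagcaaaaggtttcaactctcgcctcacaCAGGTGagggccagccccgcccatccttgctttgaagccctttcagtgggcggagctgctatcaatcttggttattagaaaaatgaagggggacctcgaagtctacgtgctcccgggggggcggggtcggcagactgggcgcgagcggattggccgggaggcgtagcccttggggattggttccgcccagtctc
Pclo, chr5:14514668-14514917, plus strand: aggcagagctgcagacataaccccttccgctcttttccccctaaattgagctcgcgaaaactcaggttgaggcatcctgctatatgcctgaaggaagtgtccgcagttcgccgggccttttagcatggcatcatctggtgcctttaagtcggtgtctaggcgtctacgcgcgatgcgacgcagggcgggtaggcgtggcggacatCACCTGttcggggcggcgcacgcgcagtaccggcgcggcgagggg
Cadps2, chr6:23839422-23839671, minus strand: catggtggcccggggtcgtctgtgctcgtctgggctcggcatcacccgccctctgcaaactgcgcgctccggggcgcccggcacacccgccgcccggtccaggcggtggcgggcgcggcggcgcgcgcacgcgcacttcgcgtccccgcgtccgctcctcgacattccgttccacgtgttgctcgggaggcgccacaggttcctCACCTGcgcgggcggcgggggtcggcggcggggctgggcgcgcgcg
Rab3d, chr9:21918184-21918433, minus strand: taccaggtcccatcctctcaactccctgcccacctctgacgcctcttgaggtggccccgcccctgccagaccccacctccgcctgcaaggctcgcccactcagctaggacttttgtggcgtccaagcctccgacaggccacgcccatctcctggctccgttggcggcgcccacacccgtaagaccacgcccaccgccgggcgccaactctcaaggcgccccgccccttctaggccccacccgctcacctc
Dnm1, chr2:32353330-32353579, minus strand: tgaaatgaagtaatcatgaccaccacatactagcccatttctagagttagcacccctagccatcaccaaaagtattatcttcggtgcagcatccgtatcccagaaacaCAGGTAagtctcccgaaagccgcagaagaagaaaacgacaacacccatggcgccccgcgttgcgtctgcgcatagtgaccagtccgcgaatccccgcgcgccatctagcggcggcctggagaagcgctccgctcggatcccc
These windows lie in different GC contents, from 59.0% in Dnm1 to 79.7% in Cadps2.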

How the data were processed

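Counts per gene were deposited by the authors, who aligned reads to mm10 with STAR 2.7.1a and counted them with featureCounts (young libraries with strand, older ovary without, GENCODE vM25) or HTSeq 0.9.1 (older pituitary and hypothalamus, without strand, Ensembl annotation). The deposited tables also hold the authors' own DESeq2 comparisons, which were not used, and 3 columns of counts that match no sample's labels were not used. Counts are raw, so depth sets their precision. Groups and replicates were taken from the labels.

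From the counts, each pair of genotypes was fitted within a tissue and cohort with edgeR 4.0.16 (TMM, filterByExpr, quasi-likelihood F test, 2-sided), with Benjamini-Hochberg adjustment over all genes tested and a threshold of 0.05, and differences of the 200M effect between tissues or cohorts were fitted in 1 model that takes all libraries as independent, although tissues can share mice. SE is the log2 fold change divided by the square root of F. The fits were tested on simulated data with 200 changed genes. Alternatives were DESeq2, DESeq2 size factors, no filter, a replicate block, removal of a trend with gene length, 3 genotypes in 1 fit, and leaving out each library. The closest libraries of a group differed by more than sampling noise (chi-square per degree of freedom at least 1.89 over 99 pairs), so none was counted as a copy.

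Values in every pituitary library are given for the 14 members of smallest p in young 200M against WT, those called lower in 200M or 200H, those called in 200M against 200H in any tissue, and those called in ovary in both cohorts or against the pituitary direction, 22 in all. Snap25, Cplx1 and Syngr3 were added after their values were seen. Of the other exocytosis genes, the 4 with the largest mean change in each direction that were called alike in both cohorts are named, except 1 that is not reported here. The members and gene lists were chosen with earlier results of these data known. CPM were scaled by TMM, computed once per tissue and cohort. Older counts ignore strand, and exons of some members, among them Syn2, Syt4, Syt7, Rab3a, Rab3b and Pclo, overlap a gene on the other strand.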

Additional observations from a re-analysis of the deposited data

Results flagged for a closer look

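In young pituitary, 200M replicate 4 stood apart from the other 3 libraries of its group for 2 members. Doc2b was at 12.59 CPM there and at 28.6 to 30.3 CPM in the others, and Unc13b was at 68.66 CPM there and at 51.8 to 54.2 CPM in the others. For each gene the gap took 0.902 and 0.855 of the group's whole range, above Dixon's 95% critical value for 4 libraries. These were 2 of 88 groups of 4 libraries examined over the 22 members given by library (2.27%), where chance alone flags about 1 in 20.

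The 200M effect differed between tissues by a test of the difference itself, which takes libraries of different tissues as independent although some can share a mouse. It differed between pituitary and hypothalamus for 24 members in young and 27 in older mice, and between pituitary and ovary for 19 in young and 11 in older mice. The ovary counts include members too low to be tested in ovary alone, Cplx1 in both cohorts and Syt17 in older mice. Dnm1, Rab3d and Syt13 were among those that differed in all 4 tests.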

How the results depend on the processing

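The count of members called in 200M against WT stayed between 29 and 33 in young and between 28 and 31 in older pituitary over the alternative settings, and between 29 and 32 and between 24 and 31 when each library was left out in turn. In young 200H against WT the count of 20 became 13 without WT replicate 1, the lowest of 13 to 20. In older pituitary 200M against 200H the single call became 4 with DESeq2, 8 with no filter, 0 with the replicate block and 0 with 3 genotypes in one fit, and 0 to 5 with 1 library left out. In older hypothalamus the 0 calls became 4 with DESeq2 and 5 with no filter in 200M against WT (0 to 2 with 1 library left out) and 4 and 6 in 200M against 200H. In young ovary the 3 calls of 200M against WT became 0 with the replicate block, 1 with 3 genotypes in one fit, and 1 to 4 with 1 library left out, and the 0 calls of 200H against WT became 1 with no filter. In older ovary the 2 calls of 200M against WT became 6 with DESeq2, 1 with no filter, 0 with the replicate block, 1 with the length trend removed, 4 with 3 genotypes in one fit, and 0 to 3 with 1 library left out. The 2 calls of 200M against 200H there became 5 with DESeq2, 1 with DESeq2 size factors, 0 with no filter, 0 with the replicate block, 1 with 3 genotypes in one fit, and 0 to 1 with 1 library left out. The 11 members differing between older pituitary and ovary became 6 with the replicate block and 3 to 12 with 1 library left out. The 0 calls between young and older pituitary became 1 with no filter. The causes were not tested, and the shares of all genes called under these settings are not given here. No value changed sign while called.

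The deviations of same-numbered libraries from their group means had correlations from -0.648 to 0.449 over 64 pairs and 13 above 0.1, and in 0 of 18 comparisons were all above 0.1, so the numbers were not read as pairing mice. With the replicate block 80 values of the 22 members kept their side of the threshold, 14 lost it and 1 gained it. With 1 library left out 625 kept it, 63 lost it and 5 gained it. Members near the lower limit, such as Cplx1, Syngr3 and Rims1, rest on few counts.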

Other observations

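In older hypothalamus some members were at lower values in 200M than in WT without passing the test. Pclo averaged 310 ± 40.5 CPM (SD, n = 4) in WT and 210 ± 15.2 CPM (SD, n = 3) in 200M, which is -0.57 ± 0.11 on the log2 scale (adjusted p = 0.0980). Stxbp5l had -0.75 ± 0.16 (adjusted p = 0.105). Neither passed edgeR's test.

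In the longest annotated 3′ UTRs, the match to the miR-200a and miR-141 seed (CAGTGTT) was in 11 of 52 members (21.2%) and in 17.1% of 20996 genes, and the match to the miR-200b, miR-200c and miR-429 seed (CAGTATT) in 11 of 52 (21.2%) and 13.2%. The members' 3′ UTRs were longer, with a median of 2383 bases beside 953.5, and per kilobase they held 0.103 and 0.0886 matches beside 0.150 and 0.108 over all genes. Of the 8 members called lower in pituitary, 2 had the first match and 0 the second. Of the 30 called higher, 8 had the first and 5 the second.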
